A study of Mus musculus with 8 samples.

Results

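Primitive streak and early mesendoderm genes were followed across 4 *Tbxt* genotypes in RNA-seq of mouse embryonic stem (ES) cells differentiated in culture until day 1. The list holds 34 genes, grouped by their known roles and drawn up with earlier results of these data known, out of 48440 genes listed in the deposited counts. All lines derive from MK6, a C57BL/6J ES cell line, and were differentiated by a feeder-free protocol in N2/B27 medium with CHIR99021, a GSK3 inhibitor that activates Wnt signalling. Wild-type cells carry the unedited gene. Exon 6 is deleted from both alleles in *Tbxt* Δexon6/Δexon6 cells and from a single allele in *Tbxt* Δexon6/+ cells. In *Tbxt* insASAY/insASAY cells (insASAY hereafter) a pair of human Alu elements, AluSx1 and AluY, was inserted into both alleles. The methods of the work are the source for the insertion on both alleles. By those methods, exon 6 was deleted in feeder-free cells under blasticidin selection. The Alu pair was inserted in cells on embryonic fibroblast feeders, with puromycin selection, Cre recombinase and ganciclovir counter-selection. Single clones were picked in both cases, and no such selection is described for the wild-type cells. Effects of a line's history and of the edit itself cannot be told apart in any of the edited lines. Each genotype has 2 libraries, described as biological replicates. Those of the Δexon6/Δexon6 genotype come from different clones. For the other genotypes the number of clones is not stated, and the p-values measure the spread between these libraries.

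The primitive streak is the site where epiblast cells leave the epithelium and form mesoderm and definitive endoderm. Wnt and Nodal signals induce it, T-box factors such as *Tbxt* and *Eomes* act in it, and Notch ligands and Mesp factors follow in the paraxial mesoderm that is later segmented into somites. In ES cells, a GSK3 inhibitor can start part of this programme. *Tbxt* is listed in the annotation as T (chr17:8434423-8442496, GRCm38, plus strand), and it was weakly expressed. Its reads numbered 47 and 42 in wild type, 26 and 22 in Δexon6/Δexon6, 39 and 54 in Δexon6/+, and 30 and 29 in insASAY. The Δexon6/Δexon6 and insASAY libraries were below every wild-type library, and the Δexon6/+ libraries overlapped with wild type. Reads counted per gene do not separate the transcripts with and without exon 6.

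Sequences around the starts of *Mesp1*, *Mesp2* and *Dll1* are shown because *Mesp2* and *Dll1* carry some of the changes described below, and because *Mesp1*, the neighbour of *Mesp2*, is the member with matches to both motifs searched. They were taken from RefSeq (GRCm38.p6), written 5′ to 3′ along the gene. For *Mesp1*, 30 bases around each match are shown, and the capitals mark the match. For *Mesp2* and *Dll1*, 250 bases before a RefSeq start and 20 bases after it are shown, with no match to mark.
Mesp1, chr7:79793645-79793674, minus strand, TCF/LEF match: ccctgctatggTTCAAAGggttcaggccct
Mesp1, chr7:79793567-79793596, minus strand, T-box match: aggggcccgctTCACACCTagggctcagga
Mesp2, chr7:79810477-79810746, plus strand: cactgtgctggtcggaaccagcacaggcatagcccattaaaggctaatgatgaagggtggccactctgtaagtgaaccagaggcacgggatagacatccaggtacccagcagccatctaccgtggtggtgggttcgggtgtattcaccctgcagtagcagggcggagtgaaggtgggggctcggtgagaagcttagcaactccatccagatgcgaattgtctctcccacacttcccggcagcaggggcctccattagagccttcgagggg
Dll1, chr17:15376913-15377182, minus strand: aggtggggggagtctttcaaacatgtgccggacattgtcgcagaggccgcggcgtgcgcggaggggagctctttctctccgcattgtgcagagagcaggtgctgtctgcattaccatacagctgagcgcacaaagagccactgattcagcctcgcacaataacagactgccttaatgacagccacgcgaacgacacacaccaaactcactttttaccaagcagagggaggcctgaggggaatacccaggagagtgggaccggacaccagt

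A T-box site (AGGTGTGA) and a TCF/LEF site (CTTTGAA) were searched on both strands of the RefSeq windows of 300 bases, from 250 before to 50 after each start. The ends of the motifs can share letters, but the *Mesp1* matches lie apart. The table held 26 windows for 21 of the 34 members. The T-box letters were found in 1 of the 26 windows (3.85%), that of *Mesp1*, against 1.28% of all 32851 windows. The TCF/LEF letters were found in 3 of 26 (11.5%), those of *Noto*, *Mesp1* and *Msgn1*, against 5.14% of all windows. These 3 genes had fewer than 10 reads in every library. Both *Mesp1* stretches lie in the first exon as GENCODE M21 annotates it, and *Mesp1* and *Mesp2* stand 16938 bases apart on chromosome 7.

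Of the 34 genes, 20 passed the filter on low counts and could be compared, and much of the list was near the limit of detection. Another 12 genes had fewer than 10 reads in every library. These were the Wnt ligand *Wnt3a* (at most 9 reads), the R-spondin *Rspo3* (1), the transcription factors *Nkx1-2* (4), *Gsc* (8), *Lhx1* (4), *Noto* (1), *Msgn1* (2), *Mesp1* (8), *Ripply2* (5), *Foxc2* (7) and *Meox1* (9), and the Hedgehog ligand *Shh* (2). The libraries held 24618587 to 28445952 reads on genes, and these 12 genes were not compared at this depth. *Evx1*, a homeobox gene of the posterior streak, and *Kdr*, a VEGF receptor of blood and vessel progenitors, reached 11 reads in a library and were not kept by the filter. Other settings gave calls for 2 of these 14 genes. With no filter, *Gsc*, which had 5 and 8 reads in wild type, 2 and 3 in Δexon6/Δexon6, 8 and 4 in Δexon6/+, and 1 and 1 in insASAY, was called lower in insASAY than in wild type (edgeR adjusted p = 0.0438) and than in Δexon6/+ (edgeR adjusted p = 0.0443). *Evx1* had 4 and 4 reads in wild type, 7 and 8 in Δexon6/Δexon6, 2 and 1 in Δexon6/+, and 2 and 11 in insASAY. It was called lower in Δexon6/+ than in Δexon6/Δexon6 with no filter (edgeR adjusted p = 0.0459) and without insASAY replicate 1 (edgeR adjusted p = 0.0232), and without that library it was called higher in insASAY than in Δexon6/+ (edgeR adjusted p = 0.0136). The filter can keep a gene through the genotype where it is high. *Mixl1* and *Wnt5a* had at least 10 reads in 3 of the 8 libraries and *Foxa2* in 6, whereas the other 17 tested genes had at least 10 in all 8.

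**Figure D1:**
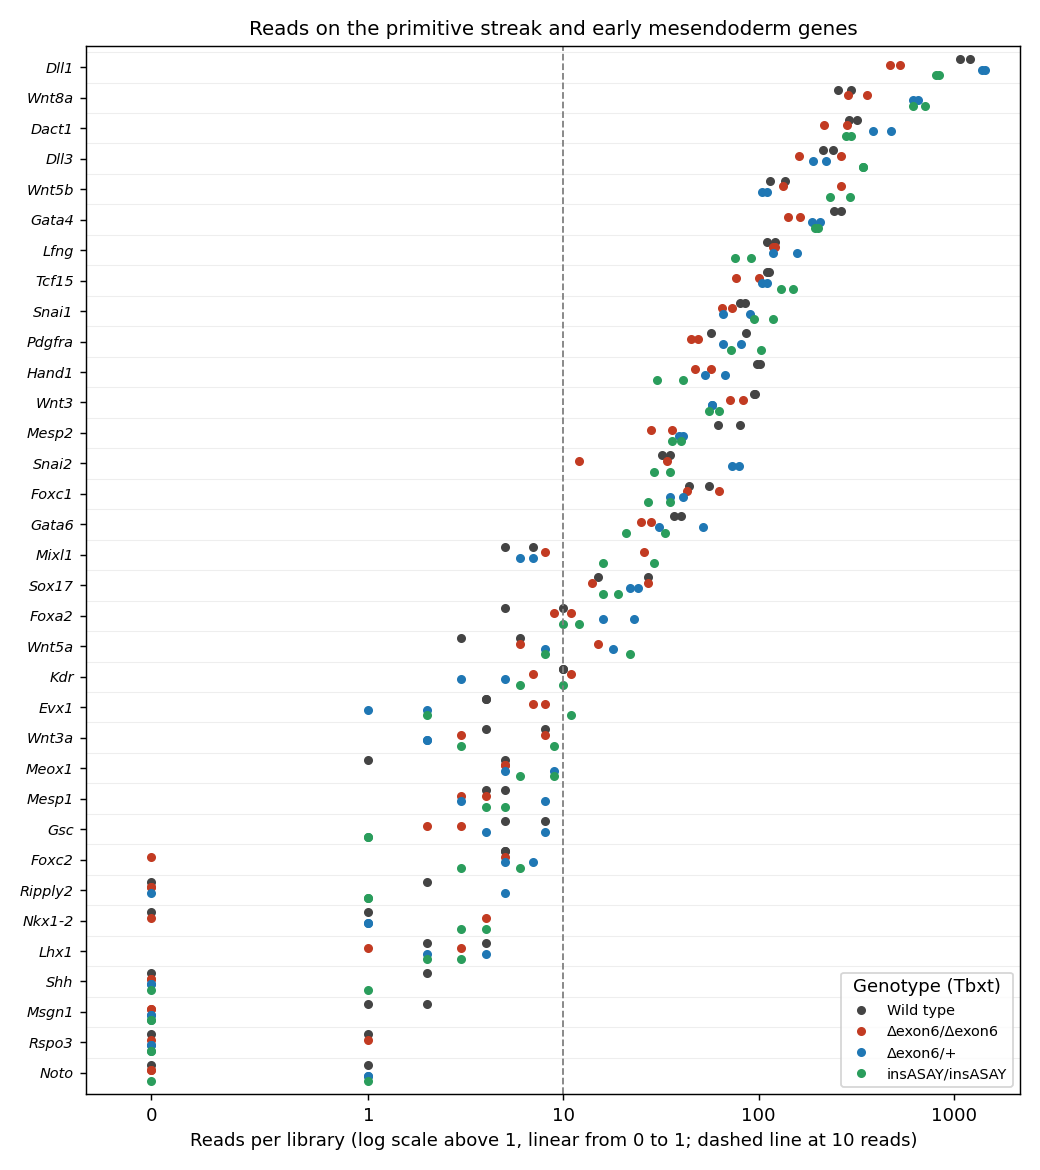
Reads in each of the 8 libraries for the 34 genes (horizontal axis: reads per library, log scale above 1 and linear from 0 to 1; each point is a library, colours are genotypes, dashed line at 10 reads), ordered by their highest value. *Dll1* had 472 to 1445 reads, and 12 genes stayed below the line in every library.

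Levels between genes were compared as CPM (reads scaled to the TMM-adjusted library size) divided by exon length in kilobases. In wild-type cells the Notch ligand *Dll1* was the most abundant member, at 9.92 CPM per kb. By CPM not divided by exon length, 29.5% of the tested genes were more abundant. *Wnt8a* followed at 5.79 CPM per kb, *Tcf15* at 4.17, *Dact1* at 2.96 and *Dll3* at 2.92. *Dact1* and *Dll3* lay within their spread of each other. *Mixl1*, a homeobox gene of the streak, was at 0.0956 CPM per kb. By CPM not divided by exon length, it was below 98.5% of the tested genes. The summed level of the 34 genes was 116 and 117 CPM in the wild-type libraries, 89.1 and 89.9 in Δexon6/Δexon6, 147 and 153 in Δexon6/+, and 125 and 119 in insASAY. *Dll1* alone made up 38.7 and 45.0 CPM of the wild-type sums. In insASAY cells the sum was above wild type although *Dll1* was lower (30.2 against 41.9 CPM), while *Wnt8a* was higher (24.3 against 10.1 CPM). Fewer cells of a type and less RNA per cell cannot be told apart in these bulk libraries.

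Each tested gene was compared between genotypes by the edgeR quasi-likelihood test on all 8 libraries with Benjamini-Hochberg adjustment over 17049 genes, called the edgeR adjusted p below. Calls needed an edgeR adjusted p below 0.05 together with a log2 fold change above 0.5 or below -0.5. The comparisons of the 3 edited lines with wild type share the 2 wild-type libraries, so a value of those libraries enters each of them. Wherever a member was called, its libraries did not overlap between the genotypes compared. With 2 libraries per genotype this adds no support to a call. Members without a call could also lack overlap, such as *Tcf15* and *Snai1* in Δexon6/Δexon6 against wild type. The share of all tested genes without overlap was not counted.

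In Δexon6/Δexon6 cells 1 of the 20 tested members was called higher and 4 lower than wild type. Over all tested genes 12.7% were called, 6.12% higher and 6.59% lower. *Wnt5b* rose, and *Dll1*, *Mesp2*, *Gata4* and *Hand1* fell. Without wild-type replicate 2 the count was 3, all lower. The median log2 fold change of the members was -0.20, beside -0.01 over all genes.

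In Δexon6/+ cells 4 members rose, namely *Wnt8a*, *Dact1*, *Foxa2* and *Snai2*, and 3 fell, namely *Wnt3*, *Mesp2* and *Hand1*. Over all tested genes 13.5% were called, 6.60% higher and 6.89% lower. The median was 0.18, beside -0.00 over all genes. The 3 falls depended on single libraries: each was lost without wild-type replicate 2, without Δexon6/+ replicate 1 and without Δexon6/+ replicate 2. Among the rises, *Foxa2* was lost without wild-type replicate 2 (log2 fold change 1.08) and without Δexon6/+ replicate 2 (1.13). *Dll1*, without a call in the fit of all 8 libraries, gained one without wild-type replicate 2 (0.53).

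In insASAY cells *Wnt5b*, *Wnt8a*, *Mixl1* and *Dll3* rose, and *Wnt3*, *Mesp2*, *Foxc1* and *Hand1* fell, 4 in each direction. Over all tested genes 21.3% were called, 11.5% higher and 9.85% lower. The median was -0.07, beside -0.01 over all genes. *Mixl1* had 16 and 29 reads in insASAY and 7 and 5 in wild type, so the filter kept it through libraries where it was high. With a filter of 10 reads in every library, which leaves *Mixl1* out, 3 members were called higher and 4 lower. Under that filter 3259 of all 15033 tested genes were called. Without wild-type replicate 2 the count of 8 became 4.

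Across these comparisons 13 of the 20 tested members were called in at least 1 edited line and 7 in none. Of the 13, 8 were called in 1 line, 3 in 2 lines (*Wnt3*, *Wnt5b* and *Wnt8a*) and 2 in all 3 (*Mesp2* and *Hand1*). The matching shares over all tested genes were not counted, so whether these numbers are unusual cannot be told. No member was called higher in 1 edited line and lower in another against wild type.

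**Figure D2:**
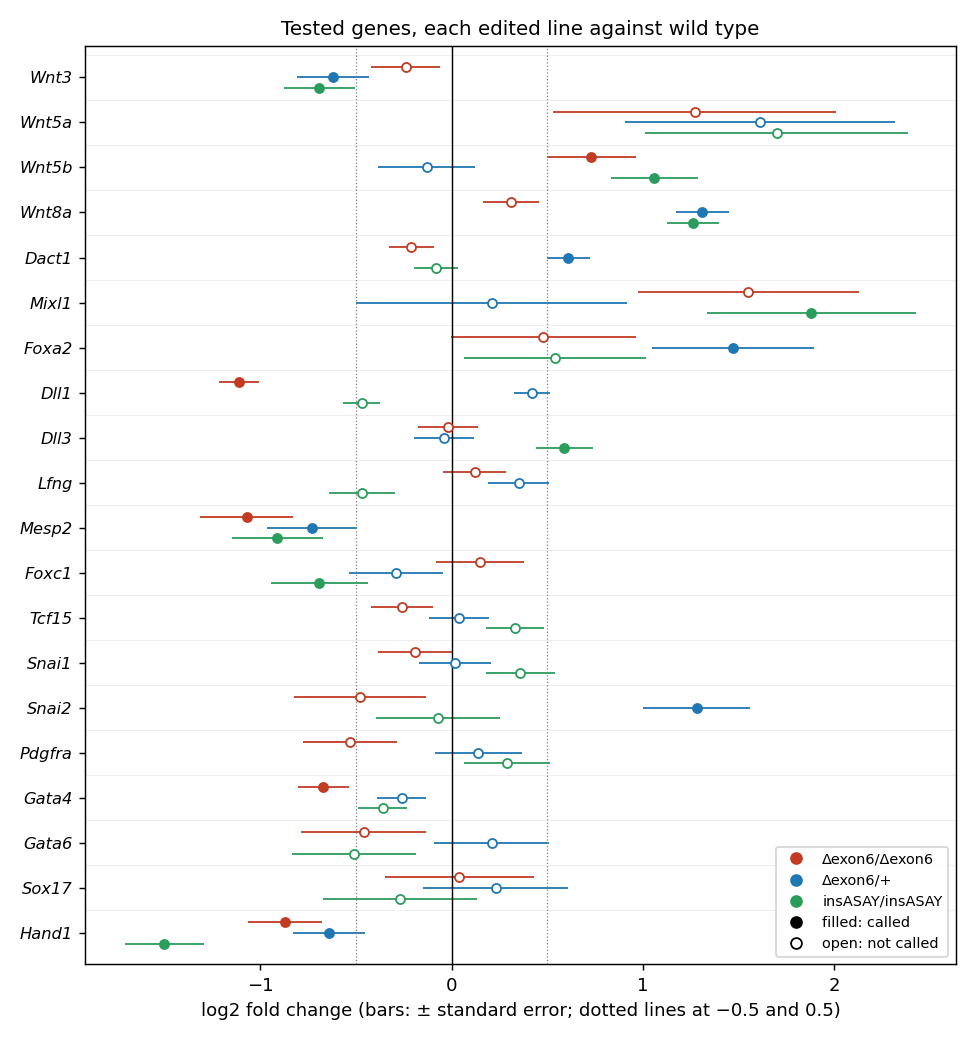
Log2 fold change against wild type (horizontal axis, bars are ± standard error) of the 20 tested genes in the 3 edited lines. Filled points were called and open points were not, and dotted lines stand at -0.5 and 0.5. *Mesp2* and *Hand1* have filled points on the left in all 3 lines, and *Wnt8a* has filled points on the right in Δexon6/+ (1.31) and insASAY (1.26).

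Among the Wnt ligands, *Wnt8a* rose in Δexon6/+ and insASAY cells, *Wnt5b* rose in insASAY cells, and *Wnt3* fell in Δexon6/+ and insASAY cells. *Wnt8a*, a canonical ligand of the posterior epiblast and streak, had 298 and 254 reads in wild type, 360 and 287 in Δexon6/Δexon6, 620 and 653 in Δexon6/+, and 711 and 620 in insASAY. The Δexon6/+ and insASAY libraries were all above those of the other genotypes, and the Δexon6/Δexon6 libraries overlapped with wild type. Against wild type *Wnt8a* was 2.48-fold higher in Δexon6/+ cells (log2 fold change 1.31, standard error 0.137, edgeR adjusted p = 1.34e-05) and 2.40-fold higher in insASAY cells (1.26, standard error 0.137, edgeR adjusted p = 1.63e-05). In Δexon6/Δexon6 cells the log2 fold change was 0.31 (edgeR adjusted p = 0.12), and it was 0.53 (edgeR adjusted p = 0.00324), a call, without Δexon6/Δexon6 replicate 2.

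*Wnt5b*, a ligand of the non-canonical Wnt branch, had 136 and 115 reads in wild type, 133 and 266 in Δexon6/Δexon6, 104 and 110 in Δexon6/+, and 295 and 232 in insASAY. Scaled to CPM these were 4.91 and 4.28, 5.38 and 9.76, 3.94 and 4.50, and 10.7 and 8.49. The Δexon6/Δexon6 clones differed from each other, the second lying among the insASAY libraries and the other close to wild type. In insASAY cells *Wnt5b* was 2.09-fold higher than in wild type (log2 fold change 1.06, standard error 0.225, edgeR adjusted p = 0.0018). In Δexon6/Δexon6 cells the log2 fold change was 0.73 (standard error 0.232, edgeR adjusted p = 0.0271). That call rested on single libraries: it was lost without Δexon6/Δexon6 replicate 2 (0.23, edgeR adjusted p = 0.404), without wild-type replicate 1 (0.83, edgeR adjusted p = 0.0789) and without wild-type replicate 2 (0.63, edgeR adjusted p = 0.155). It was also lost when only these 2 genotypes were fitted (edgeR adjusted p = 0.0588).

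*Wnt3*, the ligand needed for streak formation in the embryo, went the other way. It had 96 and 95 reads in wild type, 83 and 71 in Δexon6/Δexon6, 58 and 58 in Δexon6/+, and 63 and 56 in insASAY, so that the wild-type libraries were above all others. Its level was 1.61-fold lower than wild type in insASAY cells (log2 fold change -0.69, standard error 0.186, edgeR adjusted p = 0.00862) and 1.53-fold lower in Δexon6/+ cells (-0.62, standard error 0.187, edgeR adjusted p = 0.0231). In Δexon6/Δexon6 cells the log2 fold change was -0.24, with a 95% interval of -0.62 to 0.15. The insASAY call was lost without insASAY replicate 2 (-0.61, edgeR adjusted p = 0.0727) and by DESeq2's Wald test (adjusted p = 0.0583). The Δexon6/+ call was lost by DESeq2's Wald test (adjusted p = 0.138) and without either wild-type or either Δexon6/+ library, with log2 fold changes of -0.63 and -0.60 without wild-type replicates 1 and 2, and -0.56 and -0.67 without Δexon6/+ replicates 1 and 2.

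*Wnt5a*, a further non-canonical ligand, had 3 and 6 reads in wild type and 6 to 22 in the edited lines, with no call in any of the 6 comparisons. Against wild type its log2 fold change was 1.27 in Δexon6/Δexon6 cells and 1.61 in Δexon6/+ cells. With no filter on low counts it was called in Δexon6/+ cells (edgeR adjusted p = 0.0203). In insASAY cells, where its log2 fold change was 1.70, it was called without insASAY replicate 2 (2.25), without Δexon6/Δexon6 replicate 1 (1.69), without Δexon6/Δexon6 replicate 2 (1.70) and with no filter on low counts.

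*Dact1*, which encodes a Dishevelled-binding modulator of Wnt signalling, rose in Δexon6/+ cells. Its reads were 318 and 290 in wild type, 217 and 284 in Δexon6/Δexon6, 478 and 388 in Δexon6/+, and 280 and 298 in insASAY. Only the Δexon6/+ libraries stood above wild type, by 1.53-fold (log2 fold change 0.61, standard error 0.111, edgeR adjusted p = 0.001). In insASAY cells the log2 fold change was -0.08 (95% interval -0.33 to 0.17), and in Δexon6/Δexon6 cells it was -0.21 (95% interval -0.46 to 0.04).

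**Figure D3:**
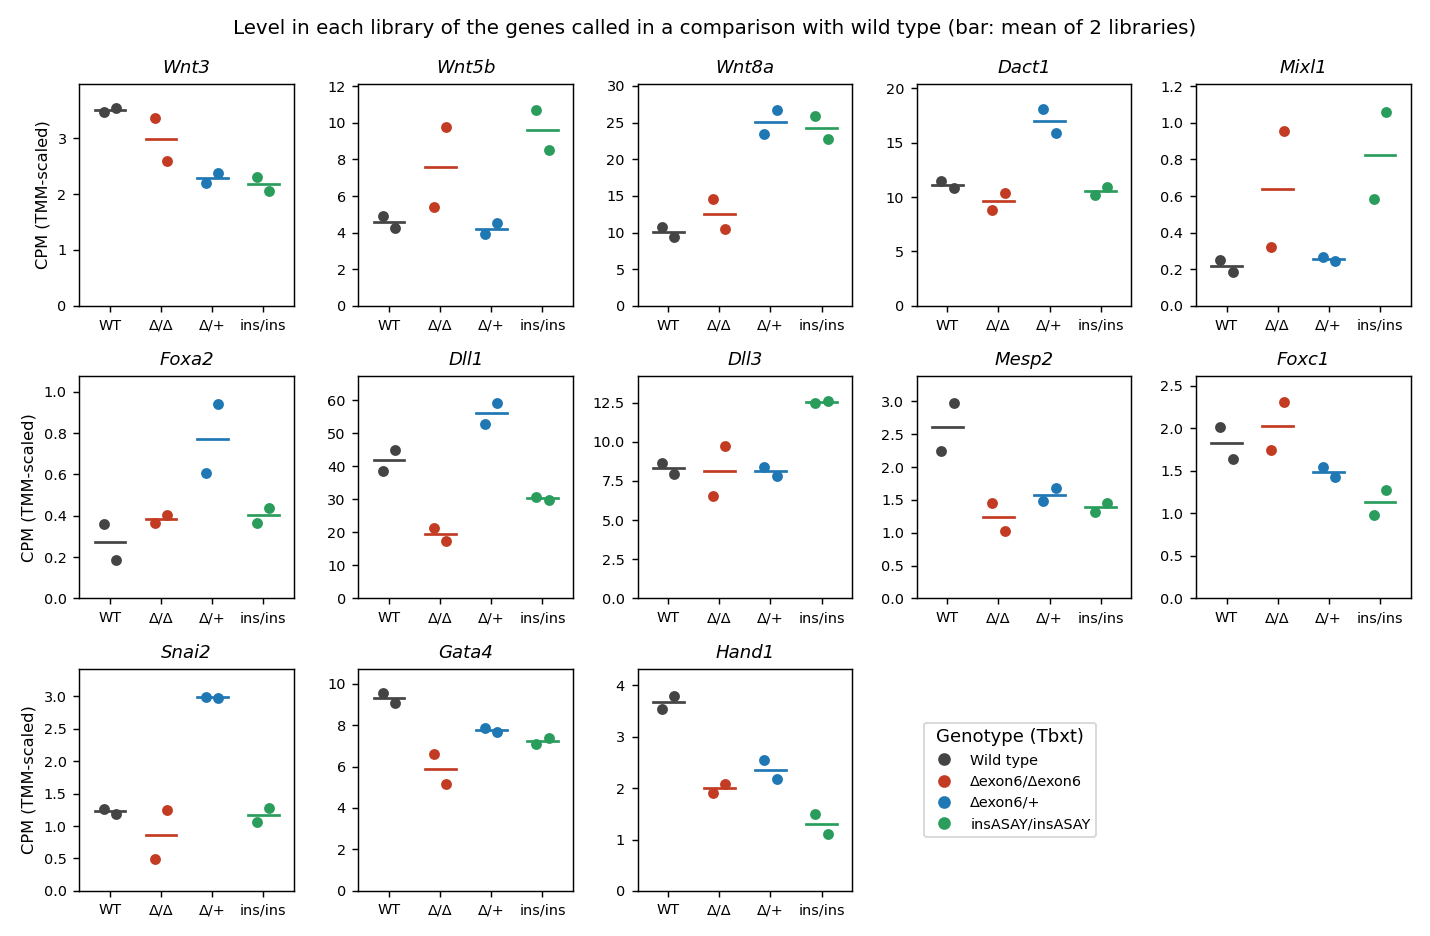
CPM (vertical axis, from 0 in each panel) in each library for the 13 genes called in at least 1 comparison with wild type. Points are libraries, bars are the mean of 2 libraries, and colours are genotypes (WT, wild type; Δ/Δ, Δexon6/Δexon6; Δ/+, Δexon6/+; ins/ins, insASAY). *Dll1* is lowest in Δexon6/Δexon6 (19.4 CPM) and highest in Δexon6/+ (56.0 CPM).

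*Mixl1* and *Foxa2* were the only tested members among the 7 streak and axial transcription factors, and both were counted in few reads. *Mixl1*, a Nodal-responsive homeobox gene, had 7 and 5 reads in wild type, 8 and 26 in Δexon6/Δexon6, 7 and 6 in Δexon6/+, and 16 and 29 in insASAY. The insASAY libraries and 1 of the Δexon6/Δexon6 libraries had at least 16 reads, and all others at most 8. *Mixl1* thus passed the filter on low counts through those libraries. In insASAY cells the log2 fold change was 1.88 (standard error 0.546, edgeR adjusted p = 0.0126), a call that was lost without wild-type replicate 1 (2.11, edgeR adjusted p = 0.0533), without wild-type replicate 2 (1.68, edgeR adjusted p = 0.0886) and without insASAY replicate 2 (1.39, edgeR adjusted p = 0.132). In Δexon6/Δexon6 cells it was 1.55 (edgeR adjusted p = 0.0524), and the call was made without Δexon6/Δexon6 replicate 1 (2.10, edgeR adjusted p = 0.00251), with the replicate number as a block (edgeR adjusted p = 0.0391) and with no filter on low counts (edgeR adjusted p = 0.00732).

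*Foxa2*, a forkhead factor of the node and endoderm, had 10 and 5 reads in wild type, 9 and 11 in Δexon6/Δexon6, 16 and 23 in Δexon6/+, and 10 and 12 in insASAY. The Δexon6/+ libraries were above all others. In Δexon6/+ cells the log2 fold change was 1.47 (standard error 0.422, edgeR adjusted p = 0.0176). It was lost by DESeq2's Wald test (adjusted p = 0.139), without wild-type replicate 2 (1.08, edgeR adjusted p = 0.158) and without Δexon6/+ replicate 2 (1.13, edgeR adjusted p = 0.162).

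Of the Notch genes, *Dll1* fell in Δexon6/Δexon6 cells and *Dll3* rose in insASAY cells. *Dll1* (ENSMUSG00000014773, chr17:15367354-15376872, minus strand) is a Notch ligand of the presomitic mesoderm and of neural progenitors. It had 1073 and 1209 reads in wild type, 529 and 472 in Δexon6/Δexon6, 1397 and 1445 in Δexon6/+, and 842 and 813 in insASAY. In CPM these were 41.9 ± 4.43, 19.4 ± 2.90, 56.0 ± 4.36 and 30.2 ± 0.658 (mean ± SD, 2 libraries), and none of the genotypes overlapped. In Δexon6/Δexon6 cells *Dll1* was 2.17-fold lower than in wild type (log2 fold change -1.11, standard error 0.104, edgeR adjusted p = 2.91e-05). The insASAY cells lay between, at -0.47 (standard error 0.0986, edgeR adjusted p = 0.0017), and Δexon6/+ cells had 0.42 (standard error 0.0951, edgeR adjusted p = 0.00452). Neither passed the threshold on the fold change. Without wild-type replicate 2 the Δexon6/+ value did (0.53), and without wild-type replicate 1 the insASAY value did (-0.58).

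*Dll3*, a divergent Notch ligand of the presomitic mesoderm, had 240 and 214 reads in wild type, 162 and 265 in Δexon6/Δexon6, 222 and 191 in Δexon6/+, and 343 and 343 in insASAY. The insASAY libraries were above all others. Their log2 fold change was 0.59 (standard error 0.148, edgeR adjusted p = 0.00542), lost without wild-type replicate 2 (0.53, edgeR adjusted p = 0.0545). *Lfng*, a glycosyltransferase that modifies Notch receptors, had 121 and 111 reads in wild type, 121 and 119 in Δexon6/Δexon6, 157 and 119 in Δexon6/+, and 76 and 92 in insASAY. Its log2 fold change in insASAY cells was -0.47 (edgeR adjusted p = 0.0389), under the threshold on the fold, and -0.62 (edgeR adjusted p = 0.047) without insASAY replicate 2. In those cells *Dll1* and *Lfng* thus lay below wild type while *Dll3* lay above it.

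Among the 8 paraxial mesoderm transcription factors 3 were tested. *Mesp2* (ENSMUSG00000030543, chr7:79810727-79813439, plus strand), a bHLH factor that acts in setting somite boundaries, fell in every edited line. It had 62 and 80 reads in wild type, 36 and 28 in Δexon6/Δexon6, 39 and 41 in Δexon6/+, and 36 and 40 in insASAY. Every edited library was below both wild-type libraries. The log2 fold change was -1.07 in Δexon6/Δexon6 cells (standard error 0.244, edgeR adjusted p = 0.00472), -0.91 in insASAY cells (standard error 0.236, edgeR adjusted p = 0.00683) and -0.73 in Δexon6/+ cells (standard error 0.234, edgeR adjusted p = 0.0312). All 3 calls were lost without wild-type replicate 2, which had the higher count, at log2 fold changes of -0.86, -0.69 and -0.51 and edgeR adjusted p of 0.0577, 0.0814 and 0.243. The insASAY call was also lost without insASAY replicate 1 (-0.83, edgeR adjusted p = 0.0594). The Δexon6/+ call was also lost without Δexon6/+ replicate 1 (-0.64, edgeR adjusted p = 0.179), without Δexon6/+ replicate 2 (-0.82, edgeR adjusted p = 0.0833) and by DESeq2's Wald test (adjusted p = 0.172).

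*Foxc1*, a forkhead factor of paraxial and other mesoderm, had 56 and 44 reads in wild type, 43 and 63 in Δexon6/Δexon6, 41 and 35 in Δexon6/+, and 27 and 35 in insASAY. The insASAY libraries were below those of wild type, at a log2 fold change of -0.69 (standard error 0.253, edgeR adjusted p = 0.0385). That call was lost in 7 of 15 alternatives: without any 1 of the wild-type libraries (-0.53 and -0.84), of the insASAY libraries (-0.51 and -0.90) or of the Δexon6/+ libraries (-0.69 and -0.69), and by DESeq2's Wald test (adjusted p = 0.171). *Tcf15*, which encodes the somite bHLH factor paraxis, had 77 to 151 reads and was not called against wild type in any line.

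*Snai2* rose in Δexon6/+ cells, while its relative *Snai1* was not called in any of the 6 comparisons. Both encode zinc-finger repressors that lower E-cadherin when cells leave an epithelium. *Snai2* had 35 and 32 reads in wild type, 12 and 34 in Δexon6/Δexon6, 79 and 73 in Δexon6/+, and 29 and 35 in insASAY. The Δexon6/+ libraries were above all others, 2.43-fold over wild type (log2 fold change 1.28, standard error 0.280, edgeR adjusted p = 0.00356). The Δexon6/Δexon6 clones were at 0.486 and 1.25 CPM. Their log2 fold change was -0.48 (edgeR adjusted p = 0.307), and it was -1.33 (edgeR adjusted p = 0.0175), a call, without replicate 2. *Snai1* had 65 to 118 reads, and its log2 fold changes were -0.19, 0.02 and 0.36 in Δexon6/Δexon6, Δexon6/+ and insASAY cells.

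Of the receptors, *Pdgfra* was tested. It encodes the PDGF receptor alpha chain of paraxial mesoderm and primitive endoderm, and had 86 and 57 reads in wild type, 45 and 49 in Δexon6/Δexon6, 81 and 66 in Δexon6/+, and 103 and 72 in insASAY. It was not called against wild type, where its log2 fold changes were -0.53, 0.14 and 0.29 in the same order.

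*Hand1* and *Gata4* fell among the 4 endoderm and lateral mesoderm transcription factors. *Hand1*, a bHLH factor of lateral and extraembryonic mesoderm that also acts in trophoblast, had 98 and 102 reads in wild type, 47 and 57 in Δexon6/Δexon6, 67 and 53 in Δexon6/+, and 41 and 30 in insASAY. Every edited library was below both wild-type libraries. The level was 2.82-fold lower than wild type in insASAY cells (log2 fold change -1.50, standard error 0.206, edgeR adjusted p = 8.78e-05), 1.83-fold lower in Δexon6/Δexon6 cells (-0.87, standard error 0.193, edgeR adjusted p = 0.00414) and 1.55-fold lower in Δexon6/+ cells (-0.64, standard error 0.189, edgeR adjusted p = 0.0205). The call in Δexon6/+ cells was lost by DESeq2's Wald test (adjusted p = 0.147), without wild-type replicates 1 or 2 (-0.69 and -0.59) and without Δexon6/+ replicates 1 or 2 (-0.76 and -0.53). The trophoblast list, of which *Hand1* is 1 of 6 genes, summed to 27.6 and 28.2 CPM in wild type, 19.2 and 15.7 in Δexon6/Δexon6, 22.5 and 22.5 in Δexon6/+, and 17.6 and 17.2 in insASAY. Of its 5 tested genes, 3 were called lower in Δexon6/Δexon6 (*Hand1*, *Tfap2c* and *Ascl2*), 1 in Δexon6/+ (*Hand1* itself) and 3 in insASAY (*Hand1*, *Tfap2c* and *Gata3*), and 0 were called higher. Over all tested genes 6.59%, 6.89% and 9.85% were called lower in the same order. *Tfap2c* made up 36.9% to 56.1% of the sum, and *Elf5* had at most 2 reads in every library. The genes did not all lie on the same side of wild type: *Ascl2* was at 2.58 CPM in wild type, 1.17 in Δexon6/Δexon6, 3.16 in Δexon6/+ and 2.90 in insASAY, and *Plac1* at 0.276, 0.496, 0.115 and 0.548 CPM. The part of such cells in the *Hand1* result was not tested.

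*Gata4*, a zinc-finger factor of endoderm and cardiac mesoderm, had 264 and 244 reads in wild type, 163 and 141 in Δexon6/Δexon6, 207 and 188 in Δexon6/+, and 195 and 202 in insASAY. The wild-type libraries were above all others. The log2 fold change was -0.67 in Δexon6/Δexon6 cells (standard error 0.133, edgeR adjusted p = 0.00224), and it was -0.50 (edgeR adjusted p = 0.00815), short of the threshold on the fold, without Δexon6/Δexon6 replicate 2. It was -0.26 in Δexon6/+ cells and -0.36 in insASAY cells (edgeR adjusted p = 0.0341), neither a call. *Gata6* and *Sox17*, factors of the endoderm as well, were not called in any of the 6 comparisons. *Gata6* had 40 and 37 reads in wild type, 28 and 25 in Δexon6/Δexon6, 31 and 52 in Δexon6/+, and 33 and 21 in insASAY, and *Sox17* had 14 to 27 reads with all genotypes overlapping wild type. The *Gata6* difference between insASAY and Δexon6/+ cells, -0.73 (edgeR adjusted p = 0.0719), was called without Δexon6/+ replicate 1 (-1.11), without Δexon6/Δexon6 replicate 1 (-0.74) and without Δexon6/Δexon6 replicate 2 (-0.73). Markers of primitive and visceral endoderm summed to 130 and 146 CPM in wild type, 109 and 103 in Δexon6/Δexon6, 154 and 177 in Δexon6/+, and 103 and 105 in insASAY. Of their 10 genes, 7 were tested, with 0 called higher and 1 lower in Δexon6/Δexon6, 1 and 0 in Δexon6/+, and 1 and 1 in insASAY. Over all tested genes 12.7%, 13.5% and 21.3% were called in the same order. *Col4a1* made up 89.8% to 92.1% of the sum, and without it the list summed to 10.6 and 11.6 CPM in wild type, 9.72 and 8.51 in Δexon6/Δexon6, 15.6 and 15.0 in Δexon6/+, and 10.3 and 8.53 in insASAY. *Dab2* was called higher in Δexon6/+ (7.03 against 3.52 CPM) and *Cubn* higher in insASAY (0.639 against 0.220 CPM). *Cubn* had only 1 to 23 reads per library and was at 0.115 CPM in Δexon6/+. The gene called lower was *Amn*, at 3.09 CPM in Δexon6/Δexon6 and 3.01 in insASAY against 5.17 in wild type. *Ttr* was at 0 reads in every library and *Afp* at no more than 4. The part of these cells in the *Gata4*, *Foxa2* and *Sox17* values was not tested.

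The edited lines were then compared with each other, which asks whether 1 or 2 edited alleles, or an inserted Alu pair in place of a deletion, went with different levels. The number of clones is not stated for Δexon6/+ and insASAY cells, so clone and edit cannot be told apart here. For insASAY cells the same holds for the editing history. Between Δexon6/+ and Δexon6/Δexon6 cells 5 members were called higher in Δexon6/+ (*Wnt8a*, *Dact1*, *Dll1*, *Snai2* and *Pdgfra*) and 1 lower (*Wnt5b*), beside 22.2% of all tested genes. *Snai2* was 3.38-fold higher (log2 fold change 1.76, edgeR adjusted p = 3.84e-04). *Dll1* was 2.90-fold higher (1.53, standard error 0.102, edgeR adjusted p = 2.01e-07), *Wnt8a* 2.00-fold (1.00, standard error 0.135, edgeR adjusted p = 5.64e-05) and *Dact1* 1.77-fold (0.82, standard error 0.113, edgeR adjusted p = 7.07e-05). The *Wnt5b* difference of -0.86 (edgeR adjusted p = 0.00982) was lost without Δexon6/Δexon6 replicate 2 (-0.36) and without Δexon6/+ replicate 1 (-0.76). The *Pdgfra* difference of 0.67 (edgeR adjusted p = 0.0383) was lost without Δexon6/Δexon6 replicate 2 (0.66), without Δexon6/+ replicate 1 (0.57), without Δexon6/+ replicate 2 (0.76) and by DESeq2's Wald test (adjusted p = 0.103). Members that gained a call here were *Mixl1* (-1.89) and *Gata4* (0.58) without Δexon6/Δexon6 replicate 1, *Wnt3* (-0.56) without Δexon6/Δexon6 replicate 2 and *Gata6* (1.05) without Δexon6/+ replicate 1.

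Between insASAY and Δexon6/Δexon6 cells, both edited on 2 alleles, 5 members were higher in insASAY (*Wnt8a*, *Dll1*, *Dll3*, *Tcf15* and *Pdgfra*) and 2 lower (*Lfng* and *Foxc1*), beside 5.16% of all tested genes. *Wnt8a* was 1.94-fold higher (log2 fold change 0.96, standard error 0.134, edgeR adjusted p = 4.71e-04), and this call was kept in every alternative. *Dll1* was 1.56-fold higher (0.65, standard error 0.106, edgeR adjusted p = 0.00135), and at 0.49 without Δexon6/Δexon6 replicate 2 it fell short of the threshold on the fold. The other 5 calls were at edgeR adjusted p from 0.0146 to 0.0383, and the count of 7 was 4 without Δexon6/Δexon6 replicate 1, 2 without insASAY replicate 1, 3 without insASAY replicate 2, 3 by DESeq2's Wald test and 2 when only these genotypes were fitted. *Dll3* (0.61) was lost without Δexon6/Δexon6 replicate 1 (0.35), insASAY replicate 1 (0.62) or insASAY replicate 2 (0.61). *Tcf15* (0.59) was lost without the same libraries, at 0.47, 0.70 and 0.47. *Pdgfra* (0.82) was lost without insASAY replicate 1 (0.54) and without either Δexon6/+ library (0.82 and 0.82). *Lfng* (-0.59) was lost without either wild-type library (-0.59 and -0.59), without Δexon6/Δexon6 replicate 1 (-0.52) and without either insASAY library (-0.46 and -0.74). *Foxc1* (-0.84) was lost without any 1 of the 8 libraries except Δexon6/Δexon6 replicate 1, at -0.62 to -1.05. Some members without a call gained one. *Snai1*, at a log2 fold change of 0.55 (edgeR adjusted p = 0.0625), was called with no filter on low counts (0.54, edgeR adjusted p = 0.0387). *Wnt5b*, at a log2 fold change of 0.34, reached 0.83 (edgeR adjusted p = 6.17e-04) without Δexon6/Δexon6 replicate 2. *Snai2*, at 0.40, reached 1.26 (edgeR adjusted p = 0.0229) without that library, and *Wnt3*, at -0.45, reached -0.63 (edgeR adjusted p = 0.0331).

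Between insASAY and Δexon6/+ cells 3 members were higher in insASAY (*Wnt5b*, *Mixl1* and *Dll3*) and 5 lower (*Dact1*, *Dll1*, *Lfng*, *Snai2* and *Hand1*), beside 27.5% of all tested genes. A filter of 10 reads in every library, which leaves *Mixl1* out, gave 2 higher and 5 lower, beside 4158 of all 15033 tested genes. *Wnt5b* was 2.28-fold higher (log2 fold change 1.19, standard error 0.231, edgeR adjusted p = 7.81e-04). *Snai2* was 2.55-fold lower (-1.35, standard error 0.282, edgeR adjusted p = 0.00134), and *Dll1* 1.85-fold lower (-0.89, standard error 0.0975, edgeR adjusted p = 8.86e-06). *Wnt8a*, higher than wild type in both lines, had a log2 fold change of -0.04 between them, with a 95% interval of -0.32 to 0.23. The *Mixl1* difference of 1.67 was lost without insASAY replicate 2 (1.17), without Δexon6/+ replicate 1 (1.72), without Δexon6/+ replicate 2 (1.61) and by DESeq2's Wald test (adjusted p = 0.0757). That of *Hand1*, -0.86, was lost without insASAY replicate 2 (-0.66) and without Δexon6/+ replicate 1 (-0.74).

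**Figure D4:**
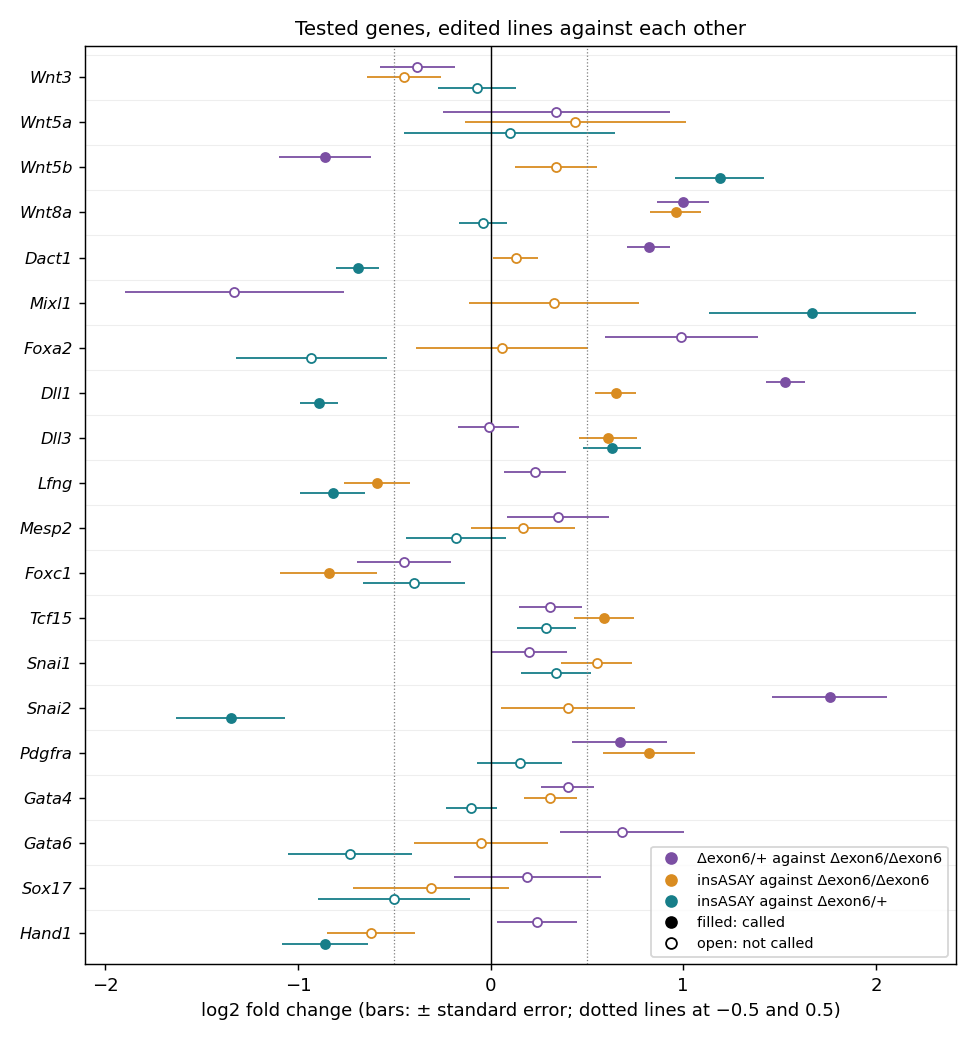
Log2 fold change between edited lines (horizontal axis, bars are ± standard error) of the 20 tested genes. The first-named line is the numerator, filled points were called, and dotted lines stand at -0.5 and 0.5. *Dll1* has filled points in all 3 comparisons, at 1.53, 0.65 and -0.89.

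Beyond the 34 genes, a wider list of 42 genes of the streak and its signals was counted, of which 38 were tested. Of those tested, 34.2%, 44.7% and 39.5% were called in Δexon6/Δexon6, Δexon6/+ and insASAY cells, beside 12.7%, 13.5% and 21.3% of all tested genes. Called higher and lower were 4 and 9 in Δexon6/Δexon6, 7 and 10 in Δexon6/+, and 7 and 8 in insASAY cells against wild type. The first of these counts was 8 in all without wild-type replicate 1 or without wild-type replicate 2, and 7 by DESeq2's Wald test. *Tdgf1*, the Nodal co-receptor Cripto, had 1266 and 1273 reads in wild type and 238 and 257 in Δexon6/+, a log2 fold change of -2.26 (standard error 0.0950, edgeR adjusted p = 1.27e-08), beside -0.82 in Δexon6/Δexon6 and -0.35, not a call, in insASAY cells. The Nodal antagonist *Lefty2* fell by 2.20 on the log2 scale in Δexon6/+ cells (edgeR adjusted p = 9.33e-07). *Lef1*, a transcription factor of Wnt signalling, rose by 1.23 in Δexon6/+ cells (edgeR adjusted p = 2.57e-06), and the activin-binding protein gene *Fst* by 1.77 in insASAY cells (edgeR adjusted p = 2.1e-06). *Tbxt* itself was at -0.81 in Δexon6/Δexon6 (edgeR adjusted p = 0.036), 0.17 in Δexon6/+ (edgeR adjusted p = 0.651) and -0.60 in insASAY cells (edgeR adjusted p = 0.0826). The insASAY value was not a call, and it became one when only insASAY and wild type were fitted (-0.59, edgeR adjusted p = 0.0459). The call in Δexon6/Δexon6 cells was lost by DESeq2's Wald test (adjusted p = 0.162), when only Δexon6/Δexon6 and wild type were fitted (edgeR adjusted p = 0.0558), without either wild-type library (-0.75 and -0.87), without Δexon6/Δexon6 replicate 2 (-0.63) and without either insASAY library (-0.81 and -0.81). *Cer1*, an antagonist of the anterior endoderm, was at 0 reads in every library.

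Markers of other cell types moved between genotypes as well. Their calls stand beside 12.7%, 13.5% and 21.3% of all tested genes called in Δexon6/Δexon6, Δexon6/+ and insASAY cells against wild type. The 10 genes of naive and general pluripotency summed to 698 and 664 CPM in wild type, 505 and 384 in Δexon6/Δexon6, 534 and 537 in Δexon6/+, and 506 and 502 in insASAY. *Pou5f1* made up 32.9% to 46.0% of the sum. Of the 10 genes 6, 5 and 4 were called lower, and 1, *Sox2*, was called higher in Δexon6/+ (113 against 68.7 CPM in wild type). The genes did not all lie on the same side of wild type. *Zfp42* was at 29.1 CPM in wild type, 32.3 in Δexon6/Δexon6, 22.4 in Δexon6/+ and 39.7 in insASAY, and *Klf2* at 35.2, 43.4, 30.3 and 37.6 CPM. Genes of neural progenitors, cells that also express *Dll1*, summed to 117 and 119 CPM in wild type, 159 and 204 in Δexon6/Δexon6, 124 and 121 in Δexon6/+, and 128 and 135 in insASAY, and of 7 tested 1, 3 and 0 were called higher and 1, 0 and 2 lower. *Nes* made up 54.9% to 90.9% of this sum and was the gene called higher in Δexon6/Δexon6. The other neural genes summed to 27.5 and 24.5 CPM in wild type, 23.4 and 18.6 in Δexon6/Δexon6, 56.1 and 53.0 in Δexon6/+, and 23.5 and 18.5 in insASAY, so that without *Nes* the Δexon6/+ libraries, highest for *Dll1*, were highest. The genes called higher in Δexon6/+ were *Sox1* (24.0 against 5.84 CPM in wild type), *Pax6* (6.33 against 2.56 CPM) and *Irx3* (15.1 against 8.26 CPM). Genes of embryonic fibroblasts, cells that also express *Pdgfra*, *Snai2* and *Foxc1*, summed to 27.5 and 31.0 CPM in wild type, 18.5 and 21 in Δexon6/Δexon6, 30.6 and 31.1 in Δexon6/+, and 16.0 and 15.4 in insASAY. Of 6 tested, 0, 2 and 0 were called higher and 3, 1 and 5 lower, with *Postn* at no more than 2 reads and *Lum* at no more than 6 in every library. The 6 formative and primed pluripotency genes summed to between 478 and 507 CPM in all libraries, with *Dnmt3b* at 44.3% to 55.9% of the sum. Of them *Pou3f1* was called higher in Δexon6/Δexon6 (38.1 against 22.8 CPM in wild type) and in insASAY (32.4 CPM), and *Utf1* lower in Δexon6/+ (84.8 against 122 CPM). The part of these cells in the values above was not tested.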

How the data were processed

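RNA was sequenced as poly(A) libraries made with a kit that keeps the strand. The authors mapped the reads to mm10 with STAR 2.7.2a and deposited read counts per gene, without normalization or filter. DESeq2 1.40.2 is listed in the submitters' processing notes. The annotation release is not given in the sources used here. Of the 3 counts per gene (unstranded and 1 per strand), the last was used, since 4.11% to 4.78% of strand-assigned reads lay on the other strand. Reads not on a gene, listed in 7 of the 8 files (26.2% to 29% there), were left out. Symbols and exon lengths came from GENCODE M21, which matched 48058 of 48440 identifiers.

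The counts were scaled by TMM, filtered with filterByExpr (minimum count 10, minimum total 15) and fitted by edgeR 4.0.16 (R 4.3.3), with the quasi-likelihood test, over all 8 libraries and the genotype as the only term. Genotypes were taken from the sample labels. Standard errors are those of the fitted log2 fold changes, and intervals are 95%. Alternatives were DESeq2 1.42.0, no filter, a filter of 10 reads in every library, DESeq2's scaling in edgeR, unstranded counts, only 2 genotypes, a replicate block, no threshold on the fold, and leaving out each library. The steps were tested on simulated counts. Figures were drawn with Python 3.11.15 and matplotlib 3.10.9.

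Every member is accounted for. Those called against wild type are named with all values, the other tested ones may be named, *Tbxt* is given in every library, and from the wider list the 4 genes with the smallest adjusted p are named. *Cer1* and the markers of other cell types named singly were chosen after their values were seen, as was the sum of a list without its most abundant gene. The members and lists were chosen with earlier results of these data known. The counts were stranded, so the overlap of 10 members with genes on the opposite strand is resolved; *Pdgfra* overlaps *Mir7025* on its own strand, and its reads cannot be told apart there.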

Additional observations from a re-analysis of the deposited data

Results flagged for a closer look

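*Dact1* had 11 reads on the strand opposite to the gene in Δexon6/Δexon6 replicate 2, a count that the comparisons do not use, against 3 and 2 in wild type and no more than 1 in each of the other 5. An annotated gene, 4930474H06Rik, overlaps *Dact1* on that strand.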

How the results depend on the processing

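Of the 41 calls of members in the 6 comparisons, 19 were kept in every alternative that gave a value and 22 were lost in at least 1, and no called value changed sign. Of 612 alternative values of these calls, 82 were no longer past the thresholds. Of 79 comparisons of tested members without a call, 18 gained one in at least 1 alternative. By DESeq2's Wald test the number of members called was 3 in Δexon6/+ against wild type (7 in edgeR) and 3 in insASAY against Δexon6/Δexon6 (7 in edgeR), and 2 in the latter when only these genotypes were fitted. Leaving out each library in turn gave 3 to 6 called members in Δexon6/Δexon6, 3 to 7 in Δexon6/+ and 4 to 9 in insASAY against wild type, 5 to 8 between the Δexon6 genotypes, 2 to 8 in insASAY against Δexon6/Δexon6 and 6 to 9 in insASAY against Δexon6/+. The cause was not tested.

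Over all tested genes, without the threshold on the fold, 6031, 5390, 8069, 8025, 2625 and 9018 genes passed in the same order, beside 2167, 2299, 3639, 3778, 880 and 4696. Leaving out a library gave 1149 to 3388 genes in the first comparison and 358 to 1529 in the fifth, where DESeq2 gave 582 and a fit of 2 genotypes 572. Replacing TMM by DESeq2's size factors moved the median log2 fold change by no more than 0.01.

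Replicate numbers do not pair the libraries: deviations of same-numbered libraries correlated at -0.01 to 0.05. With the replicate block 6, 7, 8, 6, 6 and 8 members were called, *Foxc1* being lost in insASAY against Δexon6/Δexon6 (adjusted p = 0.0502, edgeR) and *Mixl1* gained in Δexon6/Δexon6 against wild type.

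The Δexon6/Δexon6 clones differed more than other replicates, with a chi-square per degree of freedom of 10.9 over all tested genes, beside 2.75 to 3.39. The 2 libraries per genotype, and the highest counts of 29 and 23 reads for *Mixl1* and *Foxa2*, limit the precision.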
